A study of Mus musculus with 16 samples.

Results

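The genes described here are 10 genes used as marks of meningeal fibroblasts, the connective tissue cells of the membranes that wrap the brain: Foxd1, Foxc1, Foxc2, Crabp2, Aldh1a2, Slc6a13, Slc13a4, Dcn, Lum and Col1a1. They were chosen by symbol out of 49671 genes in the count tables, and each symbol matched 1 Ensembl gene on GRCm38. The choice was made with earlier results of these data known. Those results were the difference of Foxc2 and of a meninges and fibroblast mean in LPS-LPS brains against saline-saline brains, and the difference of Slc13a4 in saline-LPS brains against saline-saline brains. Member values for those pairs of groups are therefore given as a description, with no test. The tests of the other contrasts share the LPS-LPS, saline-LPS or saline-saline libraries with these pairs, so they are not independent of the choice of genes. All 10 genes passed the filter on low counts, as did 18875 genes in all.

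RNA came from the whole brain of C57BL/6 mice on postnatal day 32, with 1 library per mouse and no genotype beyond the strain is given. Each mouse had been exposed to an intraperitoneal injection of its dam on gestation day 16 and had been injected in the same way itself, as a male offspring, on postnatal day 30. The agent was lipopolysaccharide (LPS, a bacterial wall component that triggers innate immunity) or saline as its control. The 4 groups of 4 mice were LPS-LPS (LPS to dam and offspring), LPS-saline (LPS to the dam, saline to the offspring), saline-LPS (saline to the dam, LPS to the offspring) and saline-saline (saline to both). The order of the words was read from the treatment protocol, dam first, and is not spelled out in the labels. Litters are not given, so mice may share a dam, and the p-values reflect only how much these mice varied.

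Meningeal fibroblasts lie in the pia, arachnoid and dura, and in the mouse embryo those of the forebrain come largely from the neural crest. They build the collagen-rich matrix of these membranes, make retinoic acid that reaches the developing cortex, and carry transporters that move solutes between cerebrospinal fluid, blood and brain. Forkhead transcription factors mark these cells during development: in the mouse, loss of Foxc1 disturbs the meninges, the skull above them and the cortex below. In whole-brain RNA such transcripts come from a thin layer of tissue. A difference in the number of cells and a difference in RNA per cell cannot be told apart in such bulk samples.

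The libraries held 25729919 to 38571036 gene counts (median 31810757), and levels are given in counts per 1000000 gene counts of a library (CPM), after scaling of the libraries. Some libraries stood apart. Gabra6, which encodes a GABA receptor subunit of cerebellar granule neurons, was under 1 CPM in 8 libraries (LPS-LPS 2, LPS-saline 1 and 2, saline-LPS 1 and 2, saline-saline 1, 2 and 3) and at 2.51 to 70.4 CPM in the other 8. LPS-LPS replicate 3 went against the male label, with Xist at 503 CPM and Ddx3y at 0. LPS-LPS replicate 1 held 503 CPM of Gh, the growth hormone gene of the pituitary. Saline-saline replicate 1 had more Bglap (1.23 CPM, an osteoblast gene) and more Ckm (1.07 CPM, a muscle gene) than any other library, and saline-LPS replicate 4 followed with 0.859 CPM of Bglap.

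The labelled tissue was whole brain, and the members were minor transcripts in it. The sum over the 10 genes was 132 to 156 CPM in LPS-LPS brains, 123 to 144 CPM in LPS-saline brains, 105 to 140 CPM in saline-LPS brains and 106 to 128 CPM in saline-saline brains. Every member was detected in every library, from 71 reads for Lum in its lowest library to 1570 reads for Col1a1 in its highest. Other fibroblast genes were present as well, with 27 of 27 other matrix genes, 15 of 15 other leptomeningeal transporter and barrier genes and 14 of 16 other mesenchymal transcription factors passing the filter.

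Levels between genes were compared per kilobase of annotated exon. On that scale Aldh1a2 had the highest mean over the 16 libraries (5.41 CPM per kb), then Slc6a13 (5.09), Col1a1 (4.84), Slc13a4 (4.67), Dcn (3.72), Crabp2 (3.08), Foxc2 (1.81), Foxc1 (1.62), Lum (1.31) and Foxd1 (1.23). The ranges of every pair of neighbours in this order overlapped. Within single libraries, Slc13a4 lay above Dcn and Crabp2 above Foxc2 in 16 of 16, while Aldh1a2 lay above Slc6a13 in 8 of 16. The forkhead genes and Lum thus formed the low end of the set, and the retinoid enzyme, both transporters and the collagen gene the high end.

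The members lie on 7 chromosomes. Dcn (chr10:97479609-97518143) and Lum (chr10:97565128-97572703), both small leucine-rich proteoglycans, are neighbours on the plus strand with 46984 bases between them. Foxd1 (chr13:98354242-98359305) and Foxc1 (chr13:31806633-31812476) share a chromosome far apart, as do Slc6a13 (chr6:121300227-121337733) and Slc13a4 (chr6:35267957-35308131, minus strand). Genes that overlap a member on the annotation held few reads: at most 0.133% of the member's reads, for a small RNA gene inside Slc6a13. The longest run of identical exon bases between members was 53, between Foxc1 and Foxc2.

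Promoters are shown here for Foxd1, the member that separated the prenatal groups, and for both transporters, whose levels varied together within groups (r = 0.640), to give their sequence context. RefSeq promoter windows (GRCm38.p6, 250 bases before to 50 after the start) were found for 5 of the 10 genes: Foxd1, Foxc1, Aldh1a2, Slc6a13 and Slc13a4. The windows of Foxd1 (chr13:98353995-98354294, plus strand), Slc6a13 (chr6:121300038-121300337, plus strand, the first of its 3 windows) and Slc13a4 (chr6:35308077-35308376, minus strand) read as follows, 5′ to 3′, with capitals marking CCAAT or GGGCGG on either strand (ATTGG or CCGCCC on the other).
Foxd1: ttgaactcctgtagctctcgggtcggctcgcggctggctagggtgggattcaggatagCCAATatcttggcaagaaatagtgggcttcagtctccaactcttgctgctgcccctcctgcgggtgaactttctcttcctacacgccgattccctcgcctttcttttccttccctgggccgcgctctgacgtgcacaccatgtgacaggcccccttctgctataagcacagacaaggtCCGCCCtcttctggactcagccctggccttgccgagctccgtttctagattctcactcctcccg
Slc6a13: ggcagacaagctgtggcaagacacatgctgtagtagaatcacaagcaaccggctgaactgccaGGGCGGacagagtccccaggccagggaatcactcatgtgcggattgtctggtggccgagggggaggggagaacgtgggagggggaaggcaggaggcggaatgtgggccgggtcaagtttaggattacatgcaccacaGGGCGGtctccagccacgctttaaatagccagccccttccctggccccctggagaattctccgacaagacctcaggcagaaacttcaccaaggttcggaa
Slc13a4: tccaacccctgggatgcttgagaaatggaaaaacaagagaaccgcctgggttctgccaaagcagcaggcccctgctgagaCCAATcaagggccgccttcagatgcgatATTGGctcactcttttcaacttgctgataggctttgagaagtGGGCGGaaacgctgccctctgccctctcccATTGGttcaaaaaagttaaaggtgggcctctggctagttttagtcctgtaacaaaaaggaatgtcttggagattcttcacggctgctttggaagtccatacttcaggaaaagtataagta

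The motifs were searched as exact letters on both strands, and none of the letter strings holds another. CCAAT was found in a window of each of the 5 genes, and 37.4% of all 32851 promoters held it. GGGCGG was found for 4 of the 5 genes, and 35.7% of all promoters held it. The forkhead core TGTTTAC (3.65% of all promoters) and TATAAA (13.6%) were in 0 of the 7 member windows. AGGTCA, the half-site of retinoic acid receptors, was in 1 window, the third of Slc6a13, and in 16.3% of all promoters. The base composition of the windows differed widely, with 78.0% G and C for Aldh1a2, 67.3% for Foxc1, 57.7% for Foxd1 and 48.7% for Slc13a4, against a median of 52.7% over all promoters.

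Among the forkhead transcription factors, Foxd1 separated the brains by prenatal injection. Foxd1, which in the mouse marks stromal progenitors and embryonic meninges, had 7.29, 8.002, 8.48 and 9.60 CPM in LPS-LPS brains, 7.63, 5.65, 6.60 and 6.80 CPM in LPS-saline brains, 4.78, 5.56, 5.26 and 5.40 CPM in saline-LPS brains and 5.08, 4.45, 4.10 and 4.82 CPM in saline-saline brains. Each of the 8 brains with prenatal LPS lay above each of the 8 brains with prenatal saline. The lowest of the first 8 was LPS-saline replicate 2 (5.65 CPM) and the highest of the other 8 was saline-LPS replicate 2 (5.56 CPM). A separation of this kind with prenatal LPS higher was seen for 0.747% of the tested genes.

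Foxc1, a forkhead factor needed for the meninges and the overlying skull in the mouse, had 11.5, 9.85, 11.3 and 11.5 CPM in LPS-LPS brains, 11.3, 10.2, 8.74 and 8.46 CPM in LPS-saline brains, 8.28, 8.22, 8.64 and 9.26 CPM in saline-LPS brains and 9.06, 9.37, 7.74 and 8.58 CPM in saline-saline brains. The LPS-LPS brains lay above all saline-LPS and saline-saline brains, while LPS-saline brains overlapped the other 3 groups. Foxc2, its close relative in lymphatic and mesenchymal development, had 6.76, 6.52, 7.12 and 7.64 CPM in LPS-LPS brains, 5.66, 3.26, 6.06 and 5.33 CPM in LPS-saline brains, 2.25, 4.39, 6.11 and 4.60 CPM in saline-LPS brains and 3.05, 3.31, 3.22 and 3.82 CPM in saline-saline brains. Its LPS-LPS values were close together and above every other library. Its LPS-saline and saline-LPS values were spread over a range that included the saline-saline level.

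The pair of retinoid genes followed a similar order with more overlap. Crabp2, which carries retinoic acid to its nuclear receptors, had 5.42, 4.08, 5.60 and 5.23 CPM in LPS-LPS brains, 4.64, 3.19, 4.65 and 4.33 CPM in LPS-saline brains, 3.41, 3.38, 4.81 and 4.39 CPM in saline-LPS brains and 2.78, 2.57, 3.30 and 3.31 CPM in saline-saline brains. LPS-LPS and saline-LPS brains lay above all saline-saline brains, and 1 of the LPS-saline brains did not. Aldh1a2, the enzyme that makes retinoic acid from retinal, had 12.5, 11.0, 17.5 and 15.3 CPM in LPS-LPS brains, 12.9, 11.2, 14.7 and 12.6 CPM in LPS-saline brains, 9.56, 10.02, 13.3 and 14.2 CPM in saline-LPS brains and 9.94, 9.46, 11.3 and 10.4 CPM in saline-saline brains. All 4 groups overlapped for this gene.

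The means of both transporters were lowest in saline-saline brains. Slc6a13, a carrier of GABA and taurine, had 16.7, 16.3, 18.7 and 17.5 CPM in LPS-LPS brains, 17.0, 13.4, 15.3 and 12.3 CPM in LPS-saline brains, 12.6, 15.4, 17.5 and 15.4 CPM in saline-LPS brains and 11.3, 12.1, 11.9 and 13.3 CPM in saline-saline brains. LPS-LPS brains lay above all saline-saline brains, and the groups with 1 LPS injection overlapped both. Slc13a4, a sodium-dependent sulfate carrier, had 22.9, 22.6, 24.8 and 23.7 CPM in LPS-LPS brains, 21.9, 21.3, 24.5 and 20.1 CPM in LPS-saline brains, 17.8, 22.8, 23.6 and 23.9 CPM in saline-LPS brains and 17.6, 15.8, 18.4 and 16.6 CPM in saline-saline brains. Apart from saline-LPS replicate 1, every brain with an LPS injection lay above every saline-saline brain for Slc13a4.

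The matrix genes did not share 1 order. Dcn, a proteoglycan that binds collagen fibrils, had 23.4, 22.9, 22.6 and 22.7 CPM in LPS-LPS brains, 23.3, 22.3, 26.8 and 24.0 CPM in LPS-saline brains, 16.4, 18.9, 20.9 and 24.3 CPM in saline-LPS brains and 22.2, 17.6, 19.1 and 20.3 CPM in saline-saline brains. The brains with prenatal LPS lay above all saline-saline brains, and 1 saline-LPS brain lay among them. Lum, a relative of Dcn, ranged over 2.92 to 3.72 CPM in LPS-LPS brains, 2.78 to 3.78 CPM in LPS-saline brains, 2.25 to 4.11 CPM in saline-LPS brains and 2.48 to 4.54 CPM in saline-saline brains. Col1a1, a chain of type I collagen, ranged over 27.4 to 39.5 CPM in LPS-LPS brains, 26.8 to 37.4 CPM in LPS-saline brains, 27.9 to 34.3 CPM in saline-LPS brains and 26.9 to 41.9 CPM in saline-saline brains. The highest value of both Lum and Col1a1 came from saline-saline replicate 1, the library with the most Bglap and Ckm.

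The roles differed in how far the groups lay apart. On the log2(CPM + 0.5) scale, as deviations from the mean of all libraries, the 3 forkhead genes averaged 0.39 ± 0.10 in LPS-LPS brains, 0.07 ± 0.17 in LPS-saline brains, -0.16 ± 0.21 in saline-LPS brains and -0.30 ± 0.08 in saline-saline brains (SD, n = 4 each). The 3 matrix genes averaged 0.07 ± 0.05, 0.05 ± 0.08, -0.07 ± 0.23 and -0.06 ± 0.25 in the same order, within the spread of the groups.

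**Figure D1:**
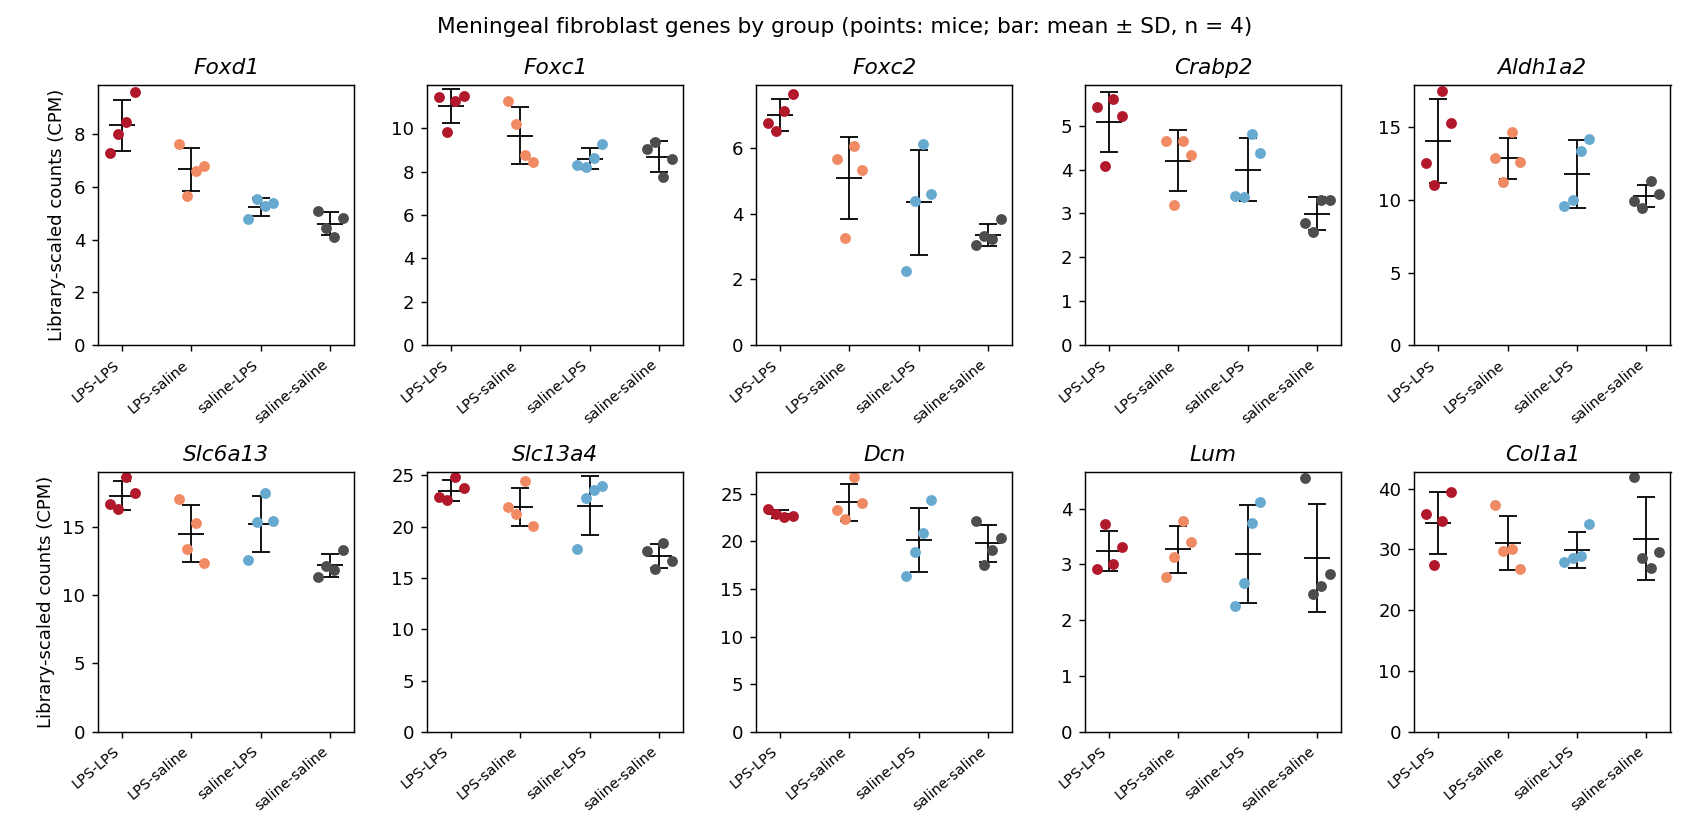
Library-scaled counts (CPM, y axis from 0) of the 10 genes in each mouse of the LPS-LPS, LPS-saline, saline-LPS and saline-saline groups; points are mice and bars are means ± SD (n = 4). Foxd1 separates the 8 brains with prenatal LPS from the other 8, Foxc2 is highest in LPS-LPS brains (6.52 to 7.64 CPM), and the groups overlap throughout for Lum and Col1a1.

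The first comparison asked what prenatal LPS left behind in brains whose puberty injection was saline, LPS-saline against saline-saline. Foxd1 averaged 6.67 ± 0.81 CPM in LPS-saline brains and 4.61 ± 0.43 CPM in saline-saline brains (SD, n = 4 each), and Slc13a4 averaged 21.9 ± 1.8 CPM and 17.1 ± 1.1 CPM in the same order. Foxd1 had a log2 fold change of 0.53 ± 0.11 (SE, adjusted p = 0.0613 by the quasi-likelihood test of edgeR) and Slc13a4 had 0.36 ± 0.09. Adjustment was by Benjamini-Hochberg over all tested genes. By that test 0 of the 10 members were called, against 0.18% of all tested genes. The Slc13a4 and Foxc2 differences known beforehand were against these same saline-saline brains, so Slc13a4 is given with no p. Their values in this contrast, and the counts that hold them, are no independent support. Without adjustment 7 of 10 members had a p under 0.05, against 13.2% of all genes.

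Whether Foxd1 and Slc13a4 passed depended on the model. Same-numbered libraries of these 2 groups deviated together. With the replicate number as a block, edgeR called Foxd1 (adjusted p = 0.0246), Slc13a4 and Crabp2 (0.49 ± 0.12, adjusted p = 0.0402), against 2.17% of all genes. DESeq2 called Foxd1 and Slc13a4, against 2.05% of all genes, and so did edgeR with Gabra6 as a covariate, against 2.82%. Members without overlap between the groups were Foxd1, Slc13a4 and Dcn, 3 of 10, and 5.17% of all genes were higher without overlap. The median member log2 fold change was 0.31, against -0.00267 over all tested genes, and Lum (0.07 ± 0.20) and Col1a1 (-0.03 ± 0.14) had the smallest differences.

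The second comparison set the same prenatal contrast among brains that had all received LPS in puberty, LPS-LPS against saline-LPS. Foxd1 rose, averaging 8.34 ± 0.97 CPM in LPS-LPS brains and 5.25 ± 0.33 CPM in saline-LPS brains (SD, n = 4 each). Its log2 fold change was 0.67 ± 0.11 (edgeR adjusted p = 0.0078), which is 1.59-fold. It was the 1 member called of 10, against 0.609% of all tested genes. Without LPS-LPS libraries 1 and 3 the difference was 0.75 ± 0.14 (edgeR adjusted p = 0.0766), in a fit that called 0.0358% of all genes.

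Foxc1 (0.36 ± 0.10, edgeR adjusted p = 0.107) and Foxc2 (0.69 ± 0.22) did not overlap between LPS-LPS and saline-LPS brains but missed the threshold. The Foxc2 difference named in the choice used these same LPS-LPS libraries, so Foxc2 is given with no p. Its calls and its place among members without overlap are no independent support here. DESeq2 called Foxc1 (adjusted p = 0.0454) beside Foxd1, against 1.83% of all genes. With Gabra6 as a covariate edgeR called Foxc1 (adjusted p = 0.0482), Foxc2 and Foxd1, against 2.53%. Foxd1, Foxc1 and Foxc2 made 3 members of 10 without overlap, against 4.96% of all genes. The median of the 10 log2 fold changes was 0.23, against -0.00715 over all tested genes. For Slc13a4, with 23.5 ± 1.0 CPM in LPS-LPS brains and 22.0 ± 2.9 CPM in saline-LPS brains, the log2 fold change was 0.09 ± 0.09. It is given with no p, since its difference known beforehand used these same saline-LPS libraries.

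Averaged over the puberty injection, prenatal LPS against prenatal saline was a contrast of 8 brains with 8. It is the mean of LPS-LPS minus saline-saline, the difference known beforehand, and LPS-saline minus saline-LPS. The counts and p-values below are thus no independent support, and Foxc2, whose difference was named in the choice, is given with no p. Here 6 of the 10 members, Foxc2 among them, were higher by edgeR's adjusted p and 0 were lower, against 7.82% of all tested genes called and 4.9% called higher. The median member log2 fold change was 0.25, against -0.00538 over all tested genes.

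Among the forkhead genes, Foxd1 and Foxc1 rose with prenatal LPS. Foxd1 averaged 7.51 ± 1.22 CPM with prenatal LPS and 4.93 ± 0.49 CPM with prenatal saline (SD, n = 8 each), a log2 fold change of 0.60 ± 0.08 (edgeR adjusted p = 0.000322). Foxc2 averaged 6.05 ± 1.35 CPM and 3.84 ± 1.19 CPM in the same order, a log2 fold change of 0.65 ± 0.15. Foxc1 had a log2 fold change of 0.25 ± 0.07 (adjusted p = 0.0292), and with a correction for GC content and length 0.24 ± 0.07 (adjusted p = 0.0596).

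Of the retinoid genes Crabp2 rose, by a log2 fold change of 0.42 ± 0.11 (edgeR adjusted p = 0.024), while Aldh1a2 had 0.29 ± 0.10 (adjusted p = 0.0769). Of the transporters Slc13a4 rose (0.23 ± 0.06, adjusted p = 0.0309) and Slc6a13 had 0.22 ± 0.07 (adjusted p = 0.0667). Of the matrix genes Dcn rose (0.23 ± 0.07, adjusted p = 0.0405), while Col1a1 (0.08 ± 0.10, adjusted p = 0.677) and Lum (0.04 ± 0.14, adjusted p = 0.896) did not pass. The replicate block and DESeq2 each called 8 members, all but Lum and Col1a1, against 13.2% and 11.1% of all genes.

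The number of calls changed with single libraries. Leaving out 1 library at a time left between 2 and 7 members called, while the share of all genes called ran from 3.65 to 8.59%. It left 2 without LPS-LPS replicate 3 or LPS-saline replicate 1, and 3 without LPS-LPS replicate 1 or 4, LPS-saline replicate 3, or saline-saline replicate 2 or 4. In these 7 fits 3.65 to 5.51% of all genes were called, and in the other 9, with 4 to 7 members, 5.49 to 8.59%, so calls fell over all genes along with the members. Foxd1 was called in each of the 16 fits, with edgeR adjusted p of 0.000196 to 0.00116. Dcn was called only without LPS-saline replicate 2, saline-LPS replicate 3 or 4, or saline-saline replicate 1. Its adjusted p ran from 0.00931 to 0.0908. That of Crabp2 ran from 0.012 to 0.0601, of Foxc1 from 0.0185 to 0.0766 and of Slc13a4 from 0.0233 to 0.0712. Without LPS-LPS libraries 1 and 3 together, Foxd1 alone was called (0.64 ± 0.09, adjusted p = 0.00197), against 1.1% of all genes, and the member median was 0.23.

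The libraries with little cerebellar RNA were unevenly spread, with 3 of the 8 brains with prenatal LPS and 5 of the 8 with prenatal saline under 1 CPM of Gabra6. Apart from LPS-LPS 1 and saline-saline 3, libraries numbered 1 or 2 were under 1 CPM and those numbered 3 or 4 were not. The Gabra6 covariate and the replicate block are thus not independent alternatives. With Gabra6 as a covariate over all 16 libraries, edgeR called 8 members, all but Lum and Col1a1, against 14.5% of all genes. The log2 fold changes were then 0.59 ± 0.08 for Foxd1 (adjusted p = 8.54e-05), 0.26 ± 0.07 for Foxc1 (adjusted p = 0.0139) and 0.38 ± 0.09 for Crabp2 (adjusted p = 0.00773). The split into classes of 8 libraries has fewer mice in each fit. Within the libraries under 1 CPM of Gabra6, with the puberty groups merged, 0 members were called by edgeR, against 0.302% of all genes. There Foxd1 differed by 0.56 ± 0.14 (adjusted p = 0.0708), Foxc2 by 0.66 ± 0.22, Foxc1 by 0.29 ± 0.10 (adjusted p = 0.158), Crabp2 by 0.36 ± 0.16 (adjusted p = 0.265), Slc13a4 by 0.25 ± 0.09 (adjusted p = 0.203) and Dcn by 0.28 ± 0.09 (adjusted p = 0.135).

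Within the libraries at 1 CPM or more, 5 with prenatal LPS and 3 with prenatal saline, Foxd1 alone was called (0.59 ± 0.13, edgeR adjusted p = 0.0393), against 0.922% of all genes. There Foxc2 differed by 0.44 ± 0.15, Foxc1 by 0.22 ± 0.11 (adjusted p = 0.305), Crabp2 by 0.28 ± 0.14 (adjusted p = 0.3), Slc13a4 by 0.12 ± 0.11 (adjusted p = 0.612) and Dcn by 0.13 ± 0.08 (adjusted p = 0.397). The Foxd1 difference was thus about as large in each class of libraries as in all 16. Those of Foxc2, Foxc1, Crabp2, Slc13a4 and Dcn were each smaller in the libraries with more cerebellar RNA. The puberty injection was not balanced between classes. At 1 CPM or more the prenatal saline libraries were saline-LPS 3 and 4 and saline-saline 4. Under 1 CPM they were saline-LPS 1 and 2 and saline-saline 1, 2 and 3. The gaps between classes cannot be told apart from this imbalance and were not tested.

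**Figure D2:**
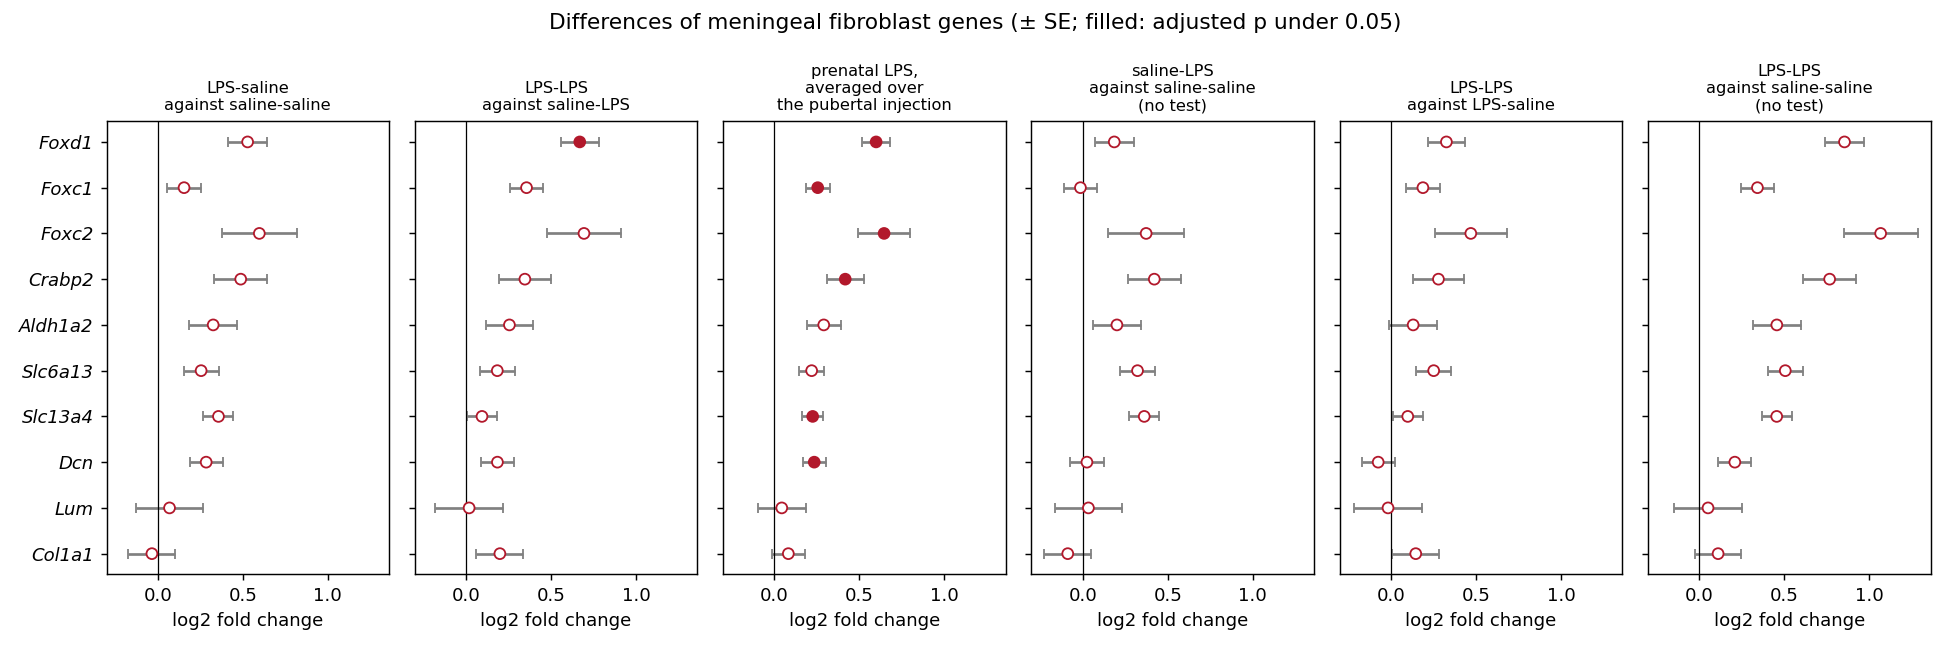
Log2 fold change (x axis, ± SE from edgeR) of each of the 10 genes (y axis) in 6 contrasts, with filled points at an adjusted p under 0.05; the panels of saline-LPS and LPS-LPS against saline-saline carry no test. Filled points are Foxd1 in LPS-LPS against saline-LPS, and Foxd1, Foxc1, Foxc2, Crabp2, Slc13a4 and Dcn in the averaged prenatal contrast, where the difference of Foxc2 was part of the choice of genes.

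LPS-LPS against saline-saline, the contrast whose results were known when the genes were chosen, is given as a description. Foxc2 averaged 7.01 ± 0.49 CPM in LPS-LPS brains and 3.35 ± 0.33 CPM in saline-saline brains (SD, n = 4 each), a log2 fold change of 1.07 ± 0.22. The other log2 fold changes were 0.85 ± 0.11 for Foxd1, 0.77 ± 0.15 for Crabp2, 0.51 ± 0.10 for Slc6a13, 0.46 ± 0.14 for Aldh1a2, 0.46 ± 0.09 for Slc13a4, 0.34 ± 0.10 for Foxc1, 0.21 ± 0.10 for Dcn, 0.11 ± 0.14 for Col1a1 and 0.05 ± 0.20 for Lum. By edgeR 6 of 10 members were called, against 6.56% of all genes, and nothing is read from this count.

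Puberty LPS was compared after each prenatal injection and averaged over them. In saline-LPS against saline-saline, also given as a description, Crabp2 differed by 0.42 ± 0.16, Foxc2 by 0.37 ± 0.22, Slc13a4 by 0.36 ± 0.09, Slc6a13 by 0.32 ± 0.10, Aldh1a2 by 0.20 ± 0.14, Foxd1 by 0.19 ± 0.12, Lum by 0.03 ± 0.20, Dcn by 0.02 ± 0.10, Foxc1 by -0.01 ± 0.10 and Col1a1 by -0.09 ± 0.14 on the log2 scale. EdgeR called 0 of 10 members, against 0.0% of all genes, with 535 genes at an unadjusted p under 0.05, and DESeq2 called 0 genes.

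In LPS-LPS against LPS-saline, edgeR called 0 of 10 members and 0.0% of all genes, with 756 genes at an unadjusted p under 0.05 and 9 called by DESeq2. The median member log2 fold change was 0.17, against -0.00166 over all tested genes. Foxd1 had the smallest p of the members, with 8.34 ± 0.97 CPM in LPS-LPS brains and 6.67 ± 0.81 CPM in LPS-saline brains (SD, n = 4 each), a log2 fold change of 0.33 ± 0.11 (adjusted p = 0.922). Foxc2 did not overlap between these groups (0.47 ± 0.21), and 2.04% of all genes were higher without overlap. The Foxc2 difference named in the choice used these same LPS-LPS libraries, so this is no independent support.

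Averaged over the prenatal injection, puberty LPS gave 0 of 10 calls and 0.0% of all genes in edgeR, with 947 genes at an unadjusted p under 0.05 and 7 called by DESeq2. Without adjustment 5 of 10 members had a p under 0.05 in edgeR, beside these 947 of 18875 genes. The median member log2 fold change was 0.20, against 0.00143 over all tested genes, and 9 of 10 were above 0. In the averaged prenatal contrast that median was 0.25. Slc6a13 had the smallest p of the members: it averaged 16.2 ± 1.9 CPM in brains with puberty LPS and 13.3 ± 1.9 CPM in brains with puberty saline (SD, n = 8 each), a log2 fold change of 0.29 ± 0.07 (adjusted p = 0.793). Without saline-LPS replicate 1, which had the lowest Foxc2 of all libraries, edgeR called Slc13a4 in this contrast, against 0.0522% of all genes. That was 1 of 16 fits that each left out 1 library. The contrast contains saline-LPS minus saline-saline, where the Slc13a4 difference was known beforehand, so the call is no independent support.

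The interaction asks whether the prenatal difference depended on the puberty injection. EdgeR called 0 of 10 members and 0.0% of all genes, with 402 genes at an unadjusted p under 0.05 and 2 called by DESeq2. The member with the smallest p was Slc13a4, with an interaction of -0.26 ± 0.12 on the log2 scale. The interaction contains saline-LPS minus saline-saline, where the Slc13a4 difference was known beforehand. For Foxd1 the interaction was 0.14 ± 0.16, so the prenatal difference of Foxd1 was not shown to differ between brains with puberty LPS and brains with puberty saline.

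Other genes linked to meningeal fibroblasts were listed by role. Whole-brain RNA does not show which cells their reads came from. The share of all tested genes to set beside each list in the averaged prenatal contrast was 4.9% called higher and 7.82% called. Of 20 factors secreted by meninges, 8 rose and 0 fell in the averaged prenatal contrast by edgeR's adjusted p, with a median log2 fold change of 0.21. Examples were Islr (0.34 ± 0.05, adjusted p = 0.00164), Igfbp6, which binds insulin-like growth factor 2 (0.32 ± 0.06, adjusted p = 0.00346), and Bmp7, a bone morphogenetic protein (0.36 ± 0.07, adjusted p = 0.0038). In LPS-saline against saline-saline, Islr was 1 of 20 called (0.39 ± 0.08, adjusted p = 0.0389), against 0.18% of all genes.

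Of 15 other leptomeningeal transporter and barrier genes, 3 rose and 1 fell in the averaged prenatal contrast, where 4.9% of all genes rose and 7.82% were called. The organic anion carrier Slc22a6 (0.37 ± 0.07, edgeR adjusted p = 0.00346) and the dicarboxylate carrier Slc13a3 (0.24 ± 0.05, adjusted p = 0.00532) rose. Cldn11, a tight junction gene of arachnoid and also of myelin, fell by 0.19 ± 0.06 on the log2 scale (adjusted p = 0.0365). Of 14 tested mesenchymal transcription factors 2 rose, the homeobox genes Six2 (0.65 ± 0.17, adjusted p = 0.0239) and Alx4, which patterns skull and limb mesenchyme in the mouse (0.38 ± 0.10, adjusted p = 0.0282).

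Of 15 tested retinoid genes 4 rose and 0 fell with prenatal LPS, among them Dhrs3, which turns retinal back into retinol (0.27 ± 0.06, edgeR adjusted p = 0.00993), the receptor Rxrb (0.16 ± 0.04, adjusted p = 0.0139) and the retinol carrier Rbp4 (0.22 ± 0.06, adjusted p = 0.031). Of 27 other matrix genes 3 rose: Pcolce, an enhancer of procollagen processing (0.31 ± 0.06, adjusted p = 0.00675), Fbln1, a fibulin of elastic matrix (0.30 ± 0.07, adjusted p = 0.0092), and Mgp, an inhibitor of calcification (0.29 ± 0.07, adjusted p = 0.0205). Both counts stand beside 4.9% of all genes called higher in that contrast. The median of the 27 was 0.04, and 17 of 27 were above 0. Pcolce was also called in LPS-saline against saline-saline (0.45 ± 0.09, edgeR adjusted p = 0.046), as 1 of 27, against 0.18% of all genes.

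Marks of other cell types that a dissected brain can carry were set beside these values. Of 11 tested mural cell genes 0 were called in the averaged prenatal contrast, 1 was above 0, and the median was -0.18. Of 12 endothelial genes 0 were called and 1 was above 0, with a median of -0.13. Choroid plexus (12 genes, median -0.24), border macrophages (10 tested, 0.15), bone and cartilage (9 tested, -0.08), skeletal muscle (8, -0.17) and ependyma (7 tested, 0.09) had 0 calls each, as did cerebellar granule cells (9, -0.11) and blood (8, -0.50). Over all tested genes edgeR called 7.82% in this contrast. Of the 86 tested genes of these lists 10 had an unadjusted p under 0.05 in edgeR, beside 4379 of all 18875 tested genes. DESeq2 called 1, Alas2 of the blood list, against 11.1% of all genes. Of 4 tested Schwann cell genes 2 were above 0, with a median of -0.095, and Foxd3, a forkhead factor of neural crest, rose (0.76 ± 0.17, edgeR adjusted p = 0.0126). Of 7 tested pituitary genes 5 were above 0, with a median of 0.66, and Chga, a granule protein of endocrine cells and neurons, rose (0.14 ± 0.04, adjusted p = 0.0334). The pituitary list mean of LPS-LPS replicate 1 lay 2.68 above the mean of all libraries on the log2 scale.

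Both vessel lists had their lowest mean sum in LPS-LPS brains and their highest in saline-saline brains, opposite to the members, with overlapping ranges. Their means were level between LPS-saline and saline-LPS brains. Summed endothelial levels were 242 to 326 CPM in LPS-LPS brains, 267 to 383 CPM in LPS-saline brains, 229 to 457 CPM in saline-LPS brains and 299 to 431 CPM in saline-saline brains. Summed mural levels were 121 to 148 CPM in LPS-LPS brains, 137 to 163 CPM in LPS-saline brains, 114 to 214 CPM in saline-LPS brains and 142 to 208 CPM in saline-saline brains. Summed border macrophage levels were 43.5 to 51.3 CPM in LPS-LPS brains, 38.0 to 48.9 CPM in LPS-saline brains, 40.2 to 57.4 CPM in saline-LPS brains and 37.7 to 53.2 CPM in saline-saline brains. No gene of these lists was at 0 in all 16 libraries, and their part in the member differences was not tested. How much meninges stayed on each brain is not given in the sources used here, and its part was not tested. Abcc9 belongs to both the mural and the leptomeningeal transporter list.

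Gene length moved with the groups too. The rank correlation across genes between exon length and a library's deviation from the mean of all libraries was -0.27 to -0.132 in LPS-LPS libraries, -0.166 to -0.0001 in LPS-saline libraries, -0.0429 to 0.194 in saline-LPS libraries and 0.0999 to 0.224 in saline-saline libraries. With a correction for GC content and length, edgeR called 3 members in the averaged prenatal contrast (Foxd1, Slc13a4 and Dcn), against 3.19% of all genes. Of the members no longer called, Foxc1 then had 0.24 ± 0.07, against 0.25 without the correction, Crabp2 had 0.34 ± 0.10 (adjusted p = 0.0723), against 0.42, and Foxc2 had 0.51 ± 0.18, against 0.65. The same correction with the replicate block called 6 members (Foxd1, Foxc1, Crabp2, Aldh1a2, Slc13a4 and Dcn), against 5.68% of all genes.

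**Figure D3:**
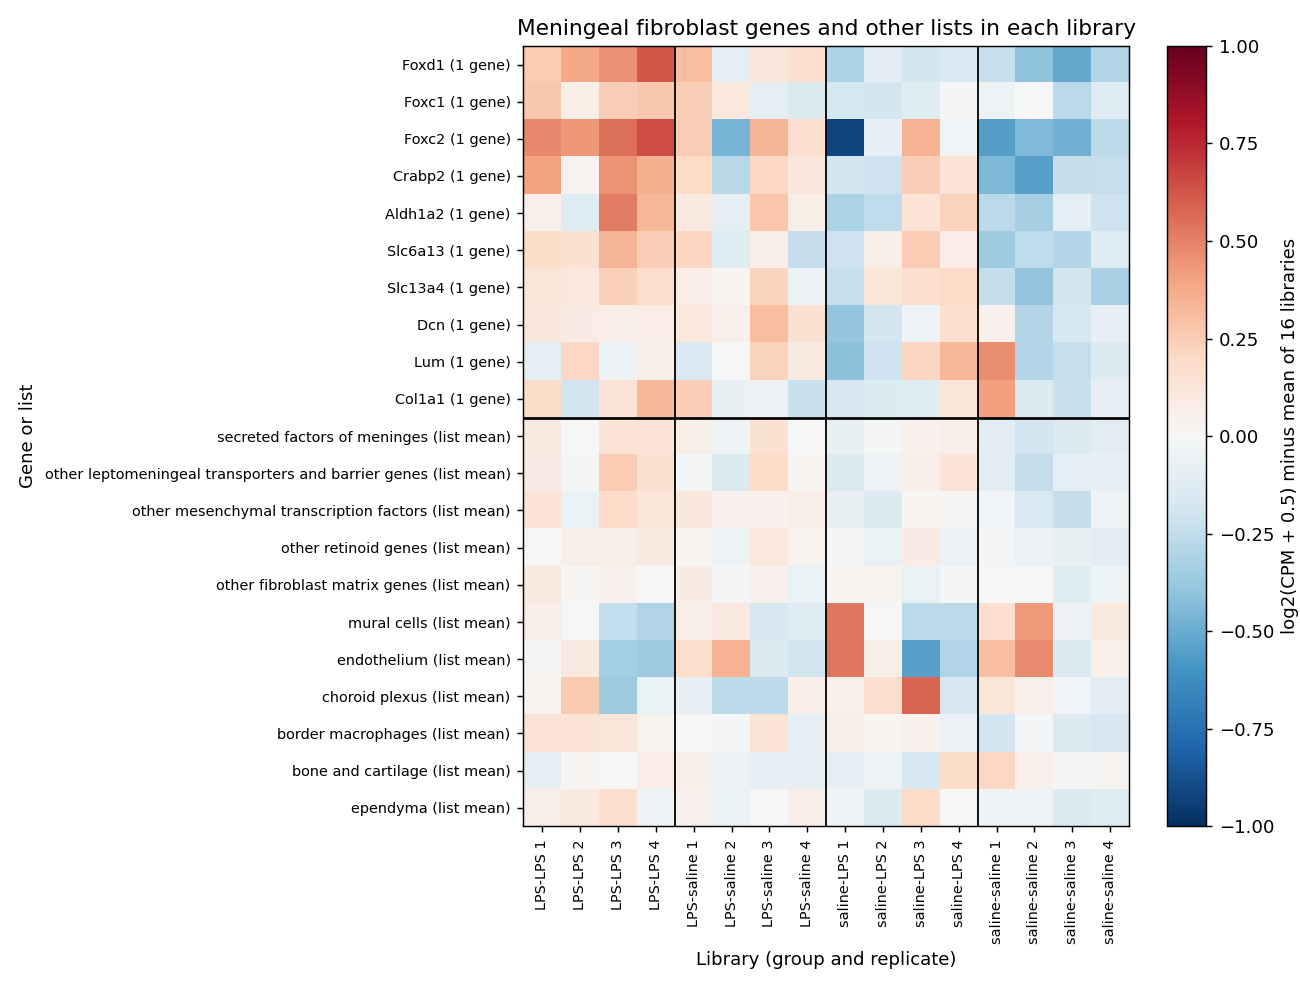
Deviation of each of the 10 genes (upper rows) and of the means of 11 other gene lists (lower rows) from their mean over 16 libraries, on the log2(CPM + 0.5) scale, for each library (columns, by group and replicate). In saline-LPS replicate 1 the mural and endothelial rows lie at 0.53 while Foxc2 lies at -0.92, and in LPS-LPS replicate 4 they lie at -0.30 and -0.37 while Foxc2 lies at 0.65.

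Within groups the members varied together. After group means were removed, 44 of the 45 pairs had a Pearson correlation above 0 over the 16 libraries, with a median of 0.393. These values describe the libraries and carry no test, since libraries share dissection, depth and scaling. The share of such pairs over all tested genes is not given here. No co-variation particular to the members is therefore read from these values. The closest pairs were Dcn with Lum (r = 0.854, Spearman's rho 0.850), Crabp2 with Aldh1a2 (r = 0.814, rho 0.838) and Foxc2 with Slc6a13 (r = 0.744). The 6 pairs among retinoid and transporter genes ran from 0.533 to 0.814, whereas the 3 pairs of forkhead genes ran from 0.0238 to 0.543.

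Foxc1 stood apart from the other members. It followed Col1a1 (r = 0.718) and, less closely, Slc6a13 (r = 0.429), but its r was -0.0302 with Lum, 0.0238 with Foxc2 and 0.0418 with Slc13a4. Its r with the mean of the other 9 was 0.264, the lowest of the set, and 0.388 without the 2 libraries farthest from the median. Those of Foxc2 (0.725), Aldh1a2 (0.720), Dcn (0.719) and Slc13a4 (0.718) were close together at the high end. Without the 2 farthest libraries they were 0.593, 0.612, 0.504 and 0.499 in that order, and Crabp2 was highest at 0.628. Foxd1 was at 0.549, and 0.533 without those libraries.

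The mean of the 10 members followed the other leptomeningeal transporter and barrier genes (r = 0.836), the secreted meningeal factors (r = 0.831) and the other mesenchymal transcription factors (r = 0.701) within groups. With the other matrix genes r was 0.124, and 0.308 without the 2 farthest libraries. With the other retinoid genes it was 0.376, and 0.643 without them. The first 3 values changed little by that step, to 0.815, 0.860 and 0.747. Against the mural and endothelial lists r was -0.732 and -0.693, and -0.501 and -0.527 without the 2 farthest libraries. The r with border macrophages was -0.0948, with choroid plexus -0.0764, and with cerebellar granule cells 0.485.

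Among 15220 other genes with a mean of at least 1 CPM, those most like the member mean within groups were Igf2, a growth factor made by meninges and choroid plexus (r = 0.936), then Med30 (0.910), Zfp995 (0.907), Dctpp1 (0.901), Scp2 (0.896) and Pigyl (0.893), over 16 libraries. Igf2 also stands in the list of secreted factors. It averaged 132 CPM, and its averaged prenatal difference was 0.21 ± 0.08 (edgeR adjusted p = 0.112). Of the 6 genes, Pigyl passed the threshold in that contrast (0.23 ± 0.07, adjusted p = 0.0443).

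**Figure D4:**
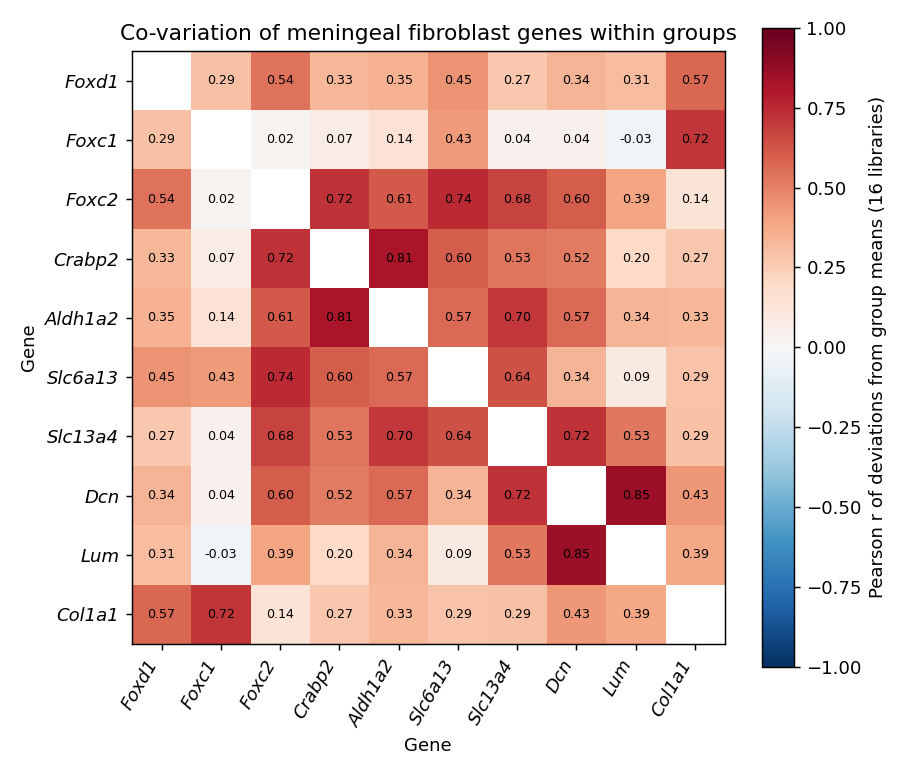
Pearson correlation between the 10 genes (both axes) of deviations from group means of log2 CPM over 16 libraries, on a colour scale from -1 to 1. The dark cells are Dcn with Lum (0.854) and Crabp2 with Aldh1a2 (0.814), and the pale row and column belong to Foxc1.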

How the data were processed

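RNA from 16 whole brains was sequenced. Per the submitters' processing notes the authors aligned reads with STAR 2.5.2b and used HTSeq 0.11.2 and GRCm38, and the deposited values are whole-number counts of reads for each Ensembl gene. Strand setting, annotation release and read filters: not given in the sources used here. Reads of overlapping antisense genes cannot be told apart without strand. The 5 special entries in each table of 49671 genes entered neither library sizes nor tests. Of all counts, 8.37 to 11.0% had no feature, 5.11 to 5.48% were ambiguous and 3.18 to 3.90% were not aligned uniquely. Intervals are standard errors that include the spread between mice. The precision of low genes is limited by their counts. No pair of libraries in a group agreed within sampling noise (chi-square per degree of freedom 5.17 to 35.5).

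Symbols and coordinates came from GENCODE M21, which held 49412 of the identifiers and lacked 259. EdgeR 4.0.16 in R 4.3.3 was run with filterByExpr, TMM scaling and a robust quasi-likelihood fit of 4 groups over all 16 libraries (biological coefficient of variation 10.4%). P-values are two-sided with Benjamini-Hochberg adjustment over 18875 genes and a threshold of 0.05. The steps were tested on simulated data with 200 changed genes. Of genes changed by 0.5 on the log2 scale, 57% were called in LPS-saline against saline-saline. In LPS-LPS against saline-LPS 51% were called, and in the averaged prenatal contrast 61%. False calls were 5.52, 2.36 and 2.6% of all calls in that order. DESeq2 1.42.0 was an alternative, as were other scaling, no filter, a replicate block, a GC and length correction, a Gabra6 covariate and leaving out libraries.

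The members, gene lists and tests were chosen with earlier results of these data known. All members are named. From each other list up to 3 called genes with the smallest p are named per tested contrast, and the 6 genes most like the member mean. Replicate numbers come from the labels, and they largely followed the Gabra6 classes. Same-numbered libraries deviated together over 15230 genes in LPS-saline and saline-saline brains (r 0.138 to 0.599), LPS-LPS and saline-LPS brains (0.294 to 0.386) and LPS-LPS and LPS-saline brains (0.181 to 0.346). They did so less in LPS-LPS and saline-saline brains (0.0143 to 0.383) and in saline-LPS and saline-saline brains (0.0317 to 0.343).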

Additional observations from a re-analysis of the deposited data

Results flagged for a closer look

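Single mice stood far from the other 3 of their group for 3 of 40 combinations of gene and group by Dixon's test at its 95% critical value, and chance gives about 5% of such groups. Foxc1 was 9.85 CPM in LPS-LPS replicate 2, below the other 3 LPS-LPS brains. Lum was 4.54 CPM in saline-saline replicate 1, above the other 3 saline-saline brains. Col1a1 was 34.3 CPM in saline-LPS replicate 4, above the other 3 saline-LPS brains. The last 2 libraries were also those with the most Bglap (1.23 and 0.859 CPM), and the part of bone tissue in these values was not tested.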

How the results depend on the processing

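In LPS-saline against saline-saline, where 0 members were called, the replicate block called 3, the block with GC and length correction 3, and DESeq2, the fit of only these groups, the Gabra6 covariate and no filter on low counts 2 each. The share of all genes called moved too: 0.18% as reported, 2.17% with the block, 0.556% with block and correction, 2.05% with DESeq2, 1.27% with only these groups, 2.82% with Gabra6 and 0.363% with no filter. Leaving out 1 library gave 0 to 3 (3 without saline-LPS replicate 1, beside 2.04% of all genes, and 1 without LPS-saline replicate 2, beside 0.0888%). In LPS-LPS against saline-LPS, where 1 was called, the Gabra6 covariate called 3 (Foxd1, Foxc1 and Foxc2), DESeq2 2 (Foxd1 and Foxc1), and the fit without LPS-LPS libraries 1 and 3, chosen after seeing the data, 0. In that order the share of all genes called was 2.53, 1.83 and 0.0358%, against 0.609% as reported. The Foxc2 difference in LPS-LPS brains was part of the choice of genes. In LPS-LPS against saline-saline that same fit without 2 libraries called 1 in place of 6, beside 0.0358% of all genes in place of 6.56%. Leaving out 1 library gave 5 to 7 there, beside 1.55 to 10.3%. In the averaged prenatal contrast, where 6 were called, the Gabra6 covariate, the replicate block and DESeq2 called 8 each, the block with GC and length correction, DESeq2's size factors and no filter 6 each, the GC and length correction 3, the fit without LPS-LPS libraries 1 and 3 called 1, libraries under 1 CPM of Gabra6 0 and those at 1 CPM or more 1 (both chosen after seeing the data), and leaving out 1 library 2 to 7. In that order these fits called 14.5, 13.2, 11.1, 5.68, 7.64, 3.49, 3.19, 1.1, 0.302, 0.922 and 3.65 to 8.59% of all genes, against 7.82% as reported. In saline-LPS against saline-saline and in the averaged puberty contrast leaving out 1 library gave 0 to 1 member. The 1 was Slc13a4, without saline-LPS replicate 1, beside 0.0157% and 0.0522% of all genes. Its difference was part of the choice of genes. Why these counts moved was not tested.

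The direction of Lum and Col1a1 changed with single libraries. The log2 fold change of Lum ran from -0.0257 to 0.314 in LPS-saline against saline-saline, from -0.121 to 0.166 in LPS-LPS against saline-LPS and from -0.026 to 0.166 in the averaged prenatal contrast, where it was -0.118 within libraries at 1 CPM or more of Gabra6. That of Col1a1 ran from -0.135 to 0.13 in LPS-saline against saline-saline. In these 3 contrasts, the other 8 members kept their direction under every alternative run. The replicate block called 7 in LPS-LPS against saline-saline, whose numbers did not pair the libraries by correlation (for 10 of 16 libraries the highest correlation was with the same number), and changed no other call beyond those given. Lum, with as few as 71 reads, had an SE of 0.20 in LPS-saline against saline-saline, and a difference within that error was not detectable. A member that missed the threshold was not shown to be unchanged.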
